A study of Mus musculus with 10 samples.

Results

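Meningeal fibroblast and collagen genes were described here as 10 genes found by symbol in the count table: Col1a1, Col1a2, Col3a1, Dcn, Lum, Igf2, Slc6a13, Fmod, Ogn and Bgn. All 10 symbols were found among the 52636 genes of the table, and all 10 were among the 18455 that passed the low-count filter. They were chosen by their levels in the 10 libraries, as a measure of meninges kept with the tissue and with earlier results of these libraries in view, so their levels by library are a description and carry no test. RNA sequencing covered S1BF, the barrel field of the somatosensory cortex, where whisker input arrives, in C57BL/6 mice of 3 genotypes at postnatal day 17. The 4 cKO libraries came from Nex-cre;Rxratm1Krc/J mice with a conditional knockout of Rxra, which encodes the nuclear receptor RXR alpha. The 2 Hetero libraries came from Nex-cre mice with the heterozygous conditional knockout of Rxra. The 4 Loxp libraries came from Rxratm1Krc/J mice, which carry the loxP-flanked Rxra allele and no Cre. All 3 groups therefore share the loxP-flanked allele, and cKO and Hetero differ from Loxp in Nex-cre as well as in Rxra. Nex-cre is known to act in excitatory neurons of the cortex, and meningeal fibroblasts are not among those cells. Other cells also make some of the transcripts described here, as given below, and the cells of origin were not tested. Whether the libraries of a group came from separate animals is not in the labels, and the p-values cover only the spread between these samples, which may be technical.

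The meninges are the membranes around the brain, and their innermost layers, the pia and the arachnoid, lie on the cortex and follow its vessels inward. Their fibroblasts secrete fibrillar collagens and the small leucine-rich proteoglycans that bind to collagen fibrils and set their thickness and spacing. They also secrete growth factors such as IGF2 and carry transporters that exchange solutes between the cortex and the cerebrospinal fluid. In a block of cortex their transcripts come from whatever meninges stay attached and from the sheaths of penetrating vessels. In bulk RNA, fewer fibroblasts and less RNA per fibroblast cannot be told apart.

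Total counts were 19332990 to 26086337 per library, and mitochondrial genes took 2.80% to 3.68% of them. Rxra had 29.0 to 32.3 CPM, which are counts over TMM-scaled library totals, in cKO, 23.2 to 26.4 in Hetero and 21.6 to 31.8 in Loxp. In cKO against Loxp that is a log2 difference of 0.21 (SE 0.112), with an edgeR adjusted p of 1. A count over the whole gene does not check a deletion of part of it. The library labelled cKO 2 stood apart in the genes described here. It held the lowest level of the 10 libraries for 9 of them, all but Bgn. Over all 18455 genes tested, cKO 2 was the lowest library for 19.1% and the highest for 20.0%, so it stood at an extreme for many genes in both directions. For Bgn the lowest library was Loxp 1, at 8.09 CPM. Each comparison below is given with cKO 2 and without it, a choice made after these levels were seen.

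Fmod and Ogn, the genes furthest below the other cKO libraries in cKO 2, and Bgn, the gene that was not below them, differ in the bases around their start sites. The windows of these 3 genes are shown as a description. The genes were picked by their levels in cKO 2, a single library, and any part of these bases in those levels was not tested. Each runs from 250 bases before to 50 bases after the start site in RefSeq on GRCm38.p6, in 300 bases on the plus strand. Fmod lies at chr1:134037004-134037303, Ogn at chr13:49607765-49608064 and Bgn at chrX:73483351-73483650. Capitals mark matches on either strand to 7 searched motifs: the TATA box TATAAA, the CCAAT box CCAAT, the GC box GGGCGG, the nuclear receptor half-site AGGTCA, the forkhead motif GTAAACA, the AP-1 motif TGANTCA and the TEAD motif CATTCC.
Fmod: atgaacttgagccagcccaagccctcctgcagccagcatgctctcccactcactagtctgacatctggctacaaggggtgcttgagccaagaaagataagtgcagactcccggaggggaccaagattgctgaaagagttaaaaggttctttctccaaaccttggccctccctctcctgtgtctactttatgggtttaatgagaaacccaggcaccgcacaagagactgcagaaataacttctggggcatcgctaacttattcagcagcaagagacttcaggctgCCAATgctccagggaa
Ogn: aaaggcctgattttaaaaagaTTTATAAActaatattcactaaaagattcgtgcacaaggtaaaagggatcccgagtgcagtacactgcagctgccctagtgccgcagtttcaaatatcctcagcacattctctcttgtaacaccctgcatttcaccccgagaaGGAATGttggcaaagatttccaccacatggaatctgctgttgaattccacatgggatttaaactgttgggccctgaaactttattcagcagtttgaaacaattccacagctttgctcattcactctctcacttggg
Bgn: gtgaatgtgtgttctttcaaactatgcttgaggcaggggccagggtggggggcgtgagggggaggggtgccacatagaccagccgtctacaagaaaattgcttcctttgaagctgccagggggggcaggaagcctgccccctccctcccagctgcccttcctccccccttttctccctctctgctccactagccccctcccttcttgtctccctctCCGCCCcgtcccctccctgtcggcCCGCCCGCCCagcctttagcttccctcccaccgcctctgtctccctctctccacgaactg
The Fmod window held 1 match, to CCAAT at position 35 after the start site. The Ogn window held 2 overlapping matches to TATAAA at positions -229 and -227, and 1 to CATTCC at position -86. The Bgn window held 3 matches to GGGCGG at positions -34, -10 and -6, the last 2 of which overlap in part. The bases G and C made up 51.0% of the Fmod window, 42.3% of the Ogn window and 63.7% of the Bgn window, against a median of 52.7% over all 32851 windows. RefSeq windows were matched for 7 of the 10 genes, 12 windows in all, and Col1a1, Dcn and Lum had none. CATTCC lay in 6 of those 12 windows (Col3a1, Igf2, Ogn and Slc6a13, with several windows of Igf2) and in 14.7% of all windows. CCAAT lay in 5 of the 12 (Col1a2, Fmod, Igf2 and Slc6a13) and in 37.4% of all. GGGCGG lay in 5 of the 12 (Bgn, Col1a2, Igf2 and Slc6a13) and in 35.7% of all. TATAAA lay in 2 of the 12 (Col3a1 and Ogn) and in 13.6% of all. AGGTCA lay in 2 of the 12 (Igf2 and Slc6a13) and in 16.3% of all. GTAAACA and TGANTCA lay in 0 of the 12, and in 3.65% and 7.81% of all windows. Slc6a13 and Igf2 have several windows each, and a match is a description of letters only.

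**Figure D1:**
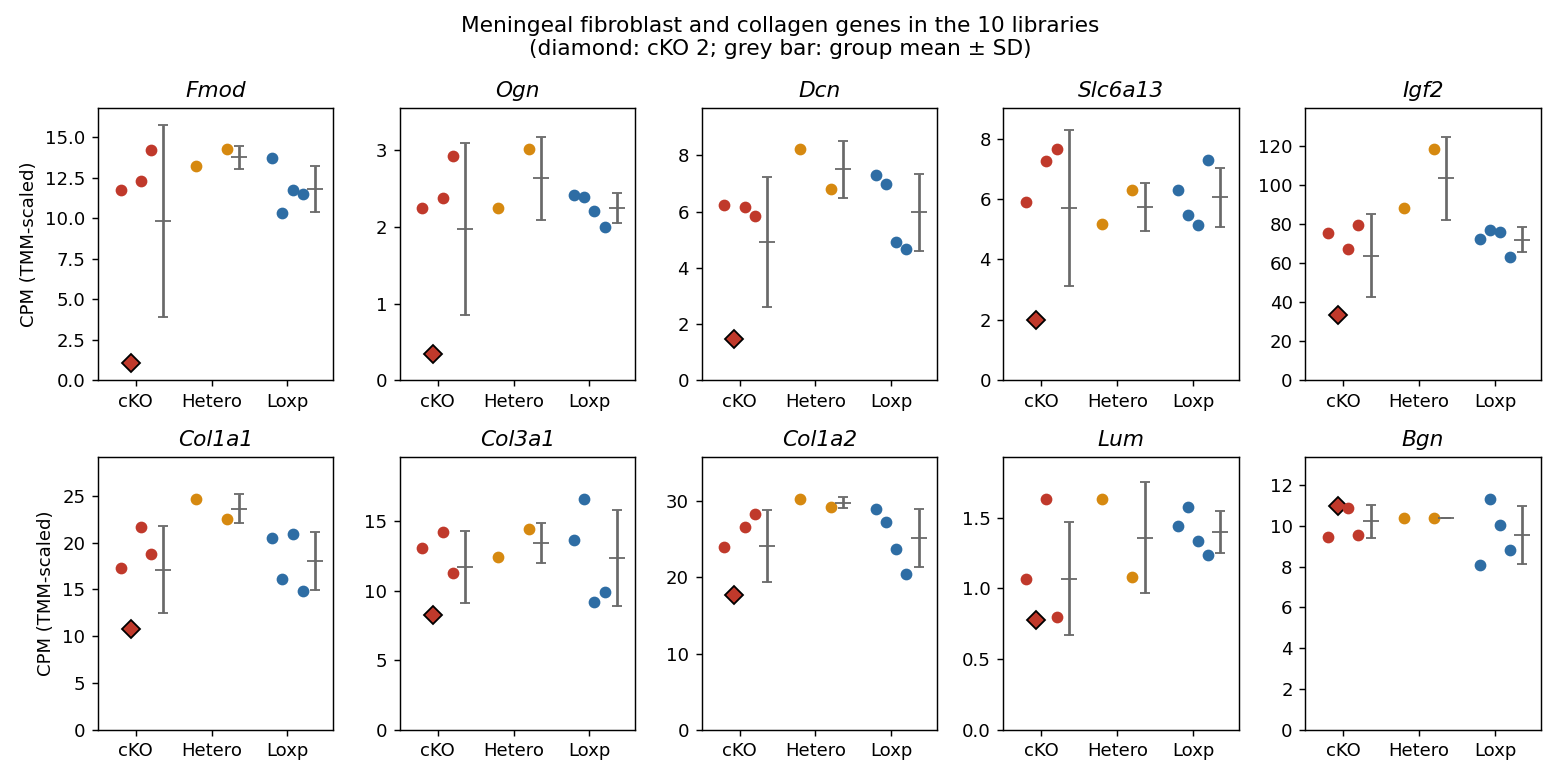
CPM of the 10 genes in every library, 1 panel per gene, with a linear axis from 0; points are libraries in order of replicate number, the diamond is cKO 2 and the grey bar is the group mean ± SD. cKO 2 is the lowest library in every panel but that of Bgn, where it had 10.97 CPM.

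Of the 5 small leucine-rich proteoglycans, Fmod, Ogn and Dcn were far lower in cKO 2 than in any other library, Lum was at the level of cKO 4 and Bgn was not lower. Fmod (ENSMUSG00000041559, GRCm38 chromosome 1, 134037254 to 134048277) encodes fibromodulin, which binds collagen I fibrils. Its CPM were 11.7, 1.04, 12.3 and 14.2 in cKO 1 to 4, 13.2 and 14.3 in Hetero 1 and 2, and 13.7, 10.3, 11.7 and 11.5 in Loxp 1 to 4. The 9 libraries other than cKO 2 lay between 10.29 and 14.25 CPM, and cKO 2 had 8.42% of the median of the other 3 cKO libraries. That level rests on 24 counts, with an exact 95% Poisson interval of 0.664 to 1.54 CPM, which covers counting error only. Ogn (ENSMUSG00000021390, chromosome 13, 49608046 to 49624501) encodes osteoglycin, also called mimecan. Ogn had 2.25, 0.345, 2.37 and 2.93 CPM in cKO, 2.25 and 3.01 in Hetero, and 2.41, 2.39, 2.20 and 1.99 in Loxp. The 8 counts in cKO 2 gave an interval of 0.149 to 0.681 CPM, below the lowest of the other libraries (1.994 CPM). Ogn overlaps Cenpp on the opposite strand, and Cenpp had 3 to 17 counts per library, so some reads of the pair may be shared.

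Dcn (ENSMUSG00000019929, chromosome 10, 97479609 to 97518143) encodes decorin, which limits the lateral growth of collagen fibrils and binds TGF-beta. Its CPM were 6.23, 1.47, 6.15 and 5.85 in cKO, 8.22 and 6.79 in Hetero, and 7.32, 6.98, 4.91 and 4.67 in Loxp. cKO 2 had 34 counts (interval 1.02 to 2.05 CPM) and 23.9% of the median of the other cKO libraries. Lum (ENSMUSG00000036446, chromosome 10, 97565128 to 97572703) encodes lumican, known for its part in the clarity of the cornea, and lies beside Dcn. Lum had 1.06, 0.777, 1.64 and 0.794 CPM in cKO, 1.63 and 1.08 in Hetero, and 1.44, 1.58, 1.34 and 1.24 in Loxp. At 18 counts, its interval in cKO 2 (0.461 to 1.23 CPM) reached the levels of cKO 1, cKO 4 and Hetero 2, so no difference from them was detectable at this depth. Bgn (ENSMUSG00000031375, chromosome X, 73483602 to 73495933) encodes biglycan, the closest relative of decorin, which vessel wall cells also make. Bgn had 9.46, 10.97, 10.86 and 9.57 CPM in cKO, 10.37 and 10.39 in Hetero, and 8.09, 11.34, 10.03 and 8.81 in Loxp. It was the steadiest of the 10 genes in cKO, with a coefficient of variation of 7.94%, against 60.6% for Fmod and 57.0% for Ogn. Within Loxp the same coefficient was 14.9% for Bgn, 11.9% for Fmod and 8.63% for Ogn, so Bgn varied most of these 3 there.

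The collagen I and III genes were lower in cKO 2 by a smaller margin than Fmod, Ogn and Dcn. Col1a1 (ENSMUSG00000001506, chromosome 11, 94936224 to 94953042) and Col1a2 (ENSMUSG00000029661, chromosome 6, 4504814 to 4541544) encode the chains of collagen I, the main fibril of connective tissue. Col1a1 had 17.3, 10.75, 21.7 and 18.8 CPM in cKO, 24.7 and 22.6 in Hetero, and 20.5, 16.1, 20.9 and 14.8 in Loxp. The level in cKO 2 was 57.3% of the median of the other cKO libraries, and Loxp 4 came next above it. Col1a2 had 24.0, 17.6, 26.7 and 28.3 CPM in cKO, 30.3 and 29.3 in Hetero, and 29.0, 27.3, 23.8 and 20.5 in Loxp, with cKO 2 at 66.1%. Col3a1 (ENSMUSG00000026043, chromosome 1, 45311538 to 45349706) encodes collagen III, which is found with collagen I in soft tissue and vessel walls. Col3a1 had 13.1, 8.29, 14.3 and 11.3 CPM in cKO, 12.4 and 14.5 in Hetero, and 13.7, 16.7, 9.16 and 9.93 in Loxp, with cKO 2 at 63.2%. Loxp 3 and Loxp 4 were near cKO 2 in this gene, at 9.16 and 9.93 CPM.

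The ratio of the chains did not set cKO 2 apart. Per length, in the authors' FPKM, Col1a1 over Col1a2 was 1.16 in cKO 2 and 1.11 to 1.66 in the other 9 libraries. Col3a1 over Col1a1 was 0.516 in cKO 2 and 0.293 to 0.692 in the others. The proteoglycan ratios did set it apart. Fmod over Bgn was 0.174 in cKO 2 and 1.67 to 3.12 in the others, and Dcn over Bgn was 0.14 in cKO 2 and 0.512 to 0.945 in the others. Lum over Dcn was 1.26 in cKO 2 and 0.324 to 0.649 in the others. Igf2 over Bgn was 3.23 in cKO 2 and 6.6 to 12.2 in the others. In that library Fmod, Dcn and Igf2 were thus low relative to Bgn. Col1a1, Col1a2 and Col3a1 kept their proportions to each other. Ratios of these collagens to Bgn were not computed, and each of them was lowest in cKO 2, where Bgn was not.

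The growth factor and the transporter were also lowest in cKO 2. Igf2 (ENSMUSG00000048583, chromosome 7, 142650766 to 142666816, minus strand) encodes insulin-like growth factor 2, an imprinted growth factor made in the brain mainly by the meninges and the choroid plexus. Igf2 had 75.6, 33.2, 67.3 and 79.7 CPM in cKO, 88.6 and 118.6 in Hetero, and 72.6, 76.9, 75.9 and 63.0 in Loxp. cKO 2 was at 43.9% of the median of the other cKO libraries, and its 769 counts gave an interval of 30.9 to 35.6 CPM. Both Hetero libraries lay above all cKO and Loxp libraries. Igf2 overlaps Igf2os on the opposite strand, which had 4 to 14 counts per library. Slc6a13 (ENSMUSG00000030108, chromosome 6, 121300227 to 121337733) encodes GAT2, a GABA and taurine transporter of leptomeningeal cells. Slc6a13 had 5.91, 1.99, 7.24 and 7.65 CPM in cKO, 5.16 and 6.29 in Hetero, and 6.31, 5.45, 5.15 and 7.30 in Loxp. cKO 2 had 46 counts (interval 1.45 to 2.65 CPM) and 27.4% of the median of the other cKO libraries.

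In total, 5 of the 10 genes stood below 50% of the median of the other cKO libraries in cKO 2, against 4.65% of all genes tested. As a sum, the low levels of the 10 genes were not shared by the other libraries numbered 2. Among the other meningeal genes below 50% of that median in cKO 2, most were lowest of the Loxp libraries in Loxp 2, as given below. Summed over the 10 genes, FPKM was 13.1 in cKO 2, 38.7 in Hetero 2 and 29.1 in Loxp 2. The sums for number 1 were 28.5 in cKO, 33.3 in Hetero and 29.7 in Loxp. Those for number 3 were 29.1 in cKO and 28.2 in Loxp, and those for number 4 were 31.0 in cKO and 25.4 in Loxp. The sum in cKO 2 was the lowest of the 10 and that in Hetero 2 the highest. Igf2 made up 40.1% to 53.2% of the sum in each library. Without Igf2 the sum was 15.3, 7.345, 17.4 and 17.2 FPKM in cKO, 17.8 and 18.1 in Hetero, and 17.1, 15.8, 15.1 and 14.4 in Loxp, so cKO 2 remained lowest.

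Between genes, levels were compared per length in FPKM. Igf2 was highest in every group, with 11.1 ± 3.68 FPKM in cKO (SD, n = 4), 18.0 ± 3.65 in Hetero (n = 2) and 12.5 ± 1.06 in Loxp (n = 4). Fmod came next, with 2.95 ± 1.79 in cKO, 4.13 ± 0.208 in Hetero and 3.54 ± 0.422 in Loxp, and Col1a1 was the third. Lum was lowest in every group, with 0.434 ± 0.163 FPKM in cKO, 0.552 ± 0.161 in Hetero and 0.567 ± 0.0583 in Loxp. In Loxp the order ran Igf2, Fmod, Col1a1, Slc6a13, Col1a2, Bgn, Col3a1, Dcn, Ogn and Lum. Only the steps from Igf2 to Fmod and from Ogn to Lum were larger than the sum of the neighbours' SDs in Loxp. In cKO, with the same order, those steps were from Igf2 to Fmod and from Bgn to Col3a1. In Hetero, where Col1a2 stood above Slc6a13, 6 of the 9 steps were larger, on 2 libraries.

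The question of cKO against Loxp is what the loss of Rxra in excitatory neurons, with Nex-cre, does to the cortex. None of the 10 genes passed the test, and the sign of most of their fold changes turned without cKO 2. That library was left out after these genes were seen to be lowest in it. A higher cKO level without it was therefore bound to follow for those genes and is no separate result. With all libraries, 9 of the 10 genes had a negative log2 fold change of cKO against Loxp, with a median of -0.129, while the median over all 18455 genes was 0.000328. Without cKO 2, 9 of the 10 were positive and the median was 0.0706. Dcn averaged 4.92 ± 2.31 CPM in cKO and 5.97 ± 1.37 in Loxp (SD, n = 4 each), which gave -0.27 on the log2 scale (SE 0.329) and 0.03 (SE 0.177) without cKO 2. Fmod averaged 9.81 ± 5.94 CPM in cKO and 11.8 ± 1.41 in Loxp, which gave -0.26 (SE 0.447) and 0.11 (SE 0.121) without cKO 2. Leaving out the library thus moved the estimate of Fmod across 0 and cut its standard error. The values of Ogn were -0.18 (SE 0.403) and 0.17 (SE 0.204), and those of Slc6a13 were -0.09 (SE 0.300) and 0.20 (SE 0.163). Igf2 had -0.17 (SE 0.206) with all libraries and 0.05 (SE 0.106) without cKO 2. The collagens stayed near 0 in both fits: Col1a1 had -0.08 and 0.10, Col1a2 -0.06 and 0.07, and Col3a1 -0.07 and 0.07. Lum was the only one of the 10 negative in both fits (-0.38, SE 0.287, and -0.25, SE 0.297). Bgn was positive in both (0.09, SE 0.125, and 0.06, SE 0.131).

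The edgeR adjusted p was 1 for each of the 10 genes in both fits, and none had an unadjusted p under 0.05. Over all genes, edgeR called 0.0%, DESeq2 called 2 genes and limma-voom 0, and 466 genes had an unadjusted p under 0.05 in edgeR. Without cKO 2, edgeR called 0.00543%, 1 gene that is not among the 10. Groups did not overlap for 0 of the 10 genes, while cKO lay wholly above Loxp for 0.818% of all genes and wholly below for 0.721%. The median standard error of the 10 genes was 0.246 with all libraries and 0.147 without cKO 2.

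**Figure D2:**
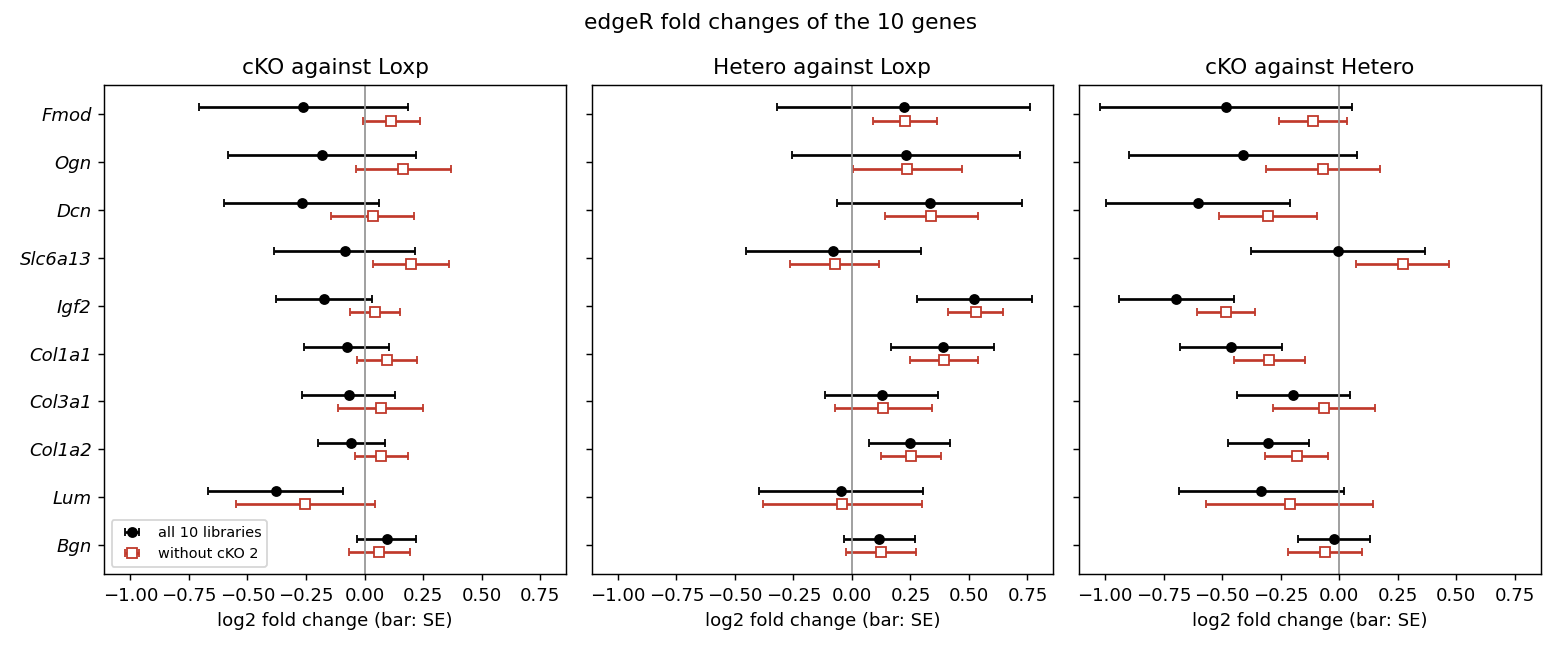
edgeR log2 fold changes (horizontal axis, bars are SE) of the 10 genes in the 3 comparisons, with all 10 libraries (filled circles) and without cKO 2 (open squares). Against Loxp, cKO lies below 0 for 9 genes with all libraries and above 0 for 9 genes without cKO 2, while Hetero against Loxp hardly moves.

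Hetero against Loxp asks the same for the heterozygous knockout. Here 8 of the 10 genes had a positive log2 fold change, with a median of 0.226, against -0.00679 over all genes. The median was 0.232 without cKO 2, which enters this comparison only through the estimate of the spread. Igf2 averaged 103.6 ± 21.2 CPM in Hetero (SD, n = 2) and 72.1 ± 6.35 in Loxp (n = 4), which gave 0.52 on the log2 scale (SE 0.247) at an edgeR adjusted p of 1. Without cKO 2 it was 0.53 (SE 0.118), with an edgeR adjusted p of 0.586. Col1a1 had 0.39 (SE 0.219), Dcn 0.33 (SE 0.395), Col1a2 0.25 (SE 0.173), Ogn 0.23 (SE 0.487) and Fmod 0.22 (SE 0.541). Without cKO 2 these were 0.39 for Col1a1 (SE 0.145), 0.34 for Dcn (SE 0.199), 0.25 for Col1a2 (SE 0.127), 0.24 for Ogn (SE 0.232) and 0.23 for Fmod (SE 0.137), at an edgeR adjusted p of 0.999 each. Without cKO 2, 2 of the 10 genes had an unadjusted edgeR p under 0.05, as did 627 of all 18411 genes tested then. With all libraries, 0 of the 10 had one. That library was left out after these genes were seen to be lowest in it. A smaller estimate of the spread was therefore bound to follow for the genes far below the rest there. The smaller p-values are no separate result. Col3a1 had 0.13, Bgn 0.12, Lum -0.05 and Slc6a13 -0.08, and 0.13, 0.12, -0.04 and -0.07 without cKO 2. Both Hetero libraries lay above all 4 Loxp libraries for Igf2, Col1a1 and Col1a2, 3 of 10 genes, while 5.64% of all genes did so.

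Of all genes edgeR called 0.0% here and limma-voom 0, while DESeq2 called 17. Those under an unadjusted p of 0.05 in edgeR numbered 468. Choroid plexus transcripts, another source of Igf2, differed between the Hetero libraries. Ttr, which encodes transthyretin, had 3.52 CPM in Hetero 1 and 699 in Hetero 2, against 0.558 to 4.40 in Loxp. Summed CPM of the 9 choroid plexus genes tested was 5.06 to 24.98 in cKO, 9.86 to 755 in Hetero and 4.99 to 9.95 in Loxp. Igf2 had 88.6 CPM in Hetero 1, where the choroid sum was in the range of the other libraries, and the highest Loxp library had 76.9. The part of choroid plexus RNA in the Igf2 level of Hetero 2 was not tested.

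cKO against Hetero sets the full knockout beside the heterozygous one, with Nex-cre in both. All 10 genes had a negative log2 fold change, with a median of -0.372 against 0.00782 over all genes. Without cKO 2 it was 9 of 10, with a median of -0.147. Igf2 averaged 63.95 ± 21.1 CPM in cKO (SD, n = 4) and 103.6 ± 21.2 in Hetero (n = 2), which gave -0.70 on the log2 scale (SE 0.246) at an edgeR adjusted p of 1. It was -0.48 (SE 0.125) without cKO 2. With no low-count filter the edgeR adjusted p of Igf2 was 0.00433 with a log2 value of -0.69, while it was 1 under each other setting tried. Dcn had -0.60 and then -0.30 without cKO 2, Fmod -0.48 and then -0.11, and Col1a1 -0.46 and then -0.30. Ogn had -0.41 and then -0.07, Lum -0.33 and then -0.21, Col1a2 -0.30 and then -0.18, and Col3a1 -0.20 and then -0.06. Bgn stayed at -0.02 and -0.06. Slc6a13 had -0.01 with all libraries and 0.27 (SE 0.199) without cKO 2.

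All cKO libraries lay below both Hetero libraries for 4 of the 10 genes, Col1a1, Col1a2, Dcn and Igf2, while 4.54% of all genes did so. The same 4 genes did so without cKO 2, where 11.0% of all genes did. The edgeR threshold was passed by 0.0% of genes, that of DESeq2 by 3 genes and that of limma-voom by 0, and 321 genes were under an unadjusted p of 0.05 in edgeR. Of the 10 genes, Igf2 alone had an unadjusted p under 0.05 with all libraries. The 3 comparisons share their libraries in pairs, so their values are not independent of each other.

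Other genes of meningeal fibroblasts and of the arachnoid were split in cKO 2. Of 42 listed genes 37 were tested. In cKO 2, 18 of them had their lowest level of the 10 libraries and 6 their highest. There 15 were below 50% of the median of the other cKO libraries. Over all genes tested, 19.1% were lowest in cKO 2, 20.0% were highest and 4.65% were below 50%. These shares also stand beside the counts of each list below. Ptgds, the prostaglandin D2 synthase of leptomeninges, had 195, 4.71, 238 and 301 CPM in cKO, 250 and 292 in Hetero, and 346, 123, 224 and 257.5 in Loxp. Its level in cKO 2 was 1.98% of the median of the other cKO libraries, lower than for any of the 10 genes. In cKO against Loxp, Ptgds had -0.36 on the log2 scale (SE 0.678) at an edgeR adjusted p of 1, and 0.04 (SE 0.245) without cKO 2. Aldh1a2, which makes retinoic acid, the ligand of the partners of RXR, had 3.15, 0.475, 1.91 and 3.13 CPM in cKO, 3.22 and 3.42 in Hetero, and 3.03, 2.01, 2.36 and 2.91 in Loxp. Mgp, matrix Gla protein, an inhibitor of calcification, had 15.5, 4.32, 18.1 and 34.1 CPM in cKO, 11.8 and 13.04 in Hetero, and 21.3, 12.5, 14.7 and 26.5 in Loxp. Gjb6, a connexin that astrocytes also make, was at 77.8% in cKO 2. Nov, a matricellular protein that neurons also make, stood at the other end, with 129, 242, 125 and 103 CPM in cKO, 144 and 154 in Hetero, and 128, 140, 118 and 93.2 in Loxp.

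Further genes of that list were picked after their values were seen. Cdh1, the E-cadherin of the arachnoid barrier, had 1 count in cKO 2 (0.0432 CPM) and 1.48 to 1.71 CPM in the other cKO libraries, with 2.15 to 2.16 CPM in Hetero and 0.813 to 1.83 CPM in Loxp. Slc47a1, an exporter of organic cations, had 1 count in cKO 2, 0.552 to 2.17 CPM in the other cKO libraries and 1.12 to 1.21 CPM in Hetero, against 0.622 to 1.28 CPM in Loxp. Slc13a4, a sulfate transporter, had 5.16, 0.950, 4.44 and 6.23 CPM in cKO, 5.21 and 8.81 in Hetero, and 6.69, 2.58, 4.48 and 4.39 in Loxp. Loxp 2 was the lowest of the Loxp libraries in Slc13a4, Ptgds, Mgp and Aldh1a2. The same held for every gene of this list below 50% in cKO 2 except Itih2 and Efemp1. The margin was small in some, as in Spp1, with 2.153 CPM in Loxp 2 and 2.163 in Loxp 3. Dpp4, Cxcl12 and Fn1 of this list were in contrast highest of the Loxp libraries in Loxp 2. A factor shared by cKO 2 and Loxp 2 was not tested. Foxc1 and Fn1, a forkhead factor of the meninges and vessels and the fibronectin of matrix, were in contrast highest in cKO 2, at 140% and 147% of the median of the other cKO libraries. For cKO against Loxp, the log2 fold changes of the list had a median of -0.0591, and of 0.0552 without cKO 2. None of its 37 genes was called in any of the 3 comparisons.

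Among the relatives of the proteoglycans, 10 of 12 were tested, 2 had their lowest level in cKO 2 and 4 their highest. Omd, osteomodulin, which lies near Ogn and was named after its values were seen, had 0 counts in cKO 2, which allows up to 0.13 CPM (3 counts), and 0.239 to 1.40 CPM in the other 9 libraries. Epyc, named in the same way, had 12 counts and 47.5% of the median of the other cKO libraries. Its 0.518 CPM in cKO 2 was not the lowest level, since Loxp 2 had 0.144 CPM. Podn had 99.6% of the median of the other cKO libraries in cKO 2, Prelp 78.8%, Tsku 134% and Ecm2 74.8%. With 2 of 10 lowest in cKO 2, this list was near the 19.1% over all genes tested, and Podn and Tsku were not low there.

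Other collagen genes were mixed in cKO 2, with more of them high than low. Of 41 listed, 40 were tested, and 5 had their lowest level in cKO 2 and 17 their highest, with a median of 128% of the other cKO libraries. Col4a1 and Col4a2 encode the collagen IV of basement membranes, which vessels make throughout the cortex. Col4a1 had 89.6, 167, 101 and 101 CPM in cKO, 124 and 115 in Hetero, and 102, 155, 97.7 and 90.8 in Loxp. Col4a2 had 98.4, 182, 118 and 118 CPM in cKO, 125 and 131 in Hetero, and 108, 155, 103 and 115 in Loxp. cKO 2 and Loxp 2 were the highest library of their groups for both. Col6a1, a beaded filament collagen of connective tissue, was at 71.1% in cKO 2, and Col9a3, a fibril-associated collagen, at 163%. For cKO against Loxp, these 40 genes had a median log2 fold change of 0.00766, and of -0.0981 without cKO 2.

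The enzymes that hydroxylate, fold, trim and crosslink collagen were not low in cKO 2. Of 28 listed genes 27 were tested, 2 lowest and 10 highest in cKO 2, with a median of 115%. Sparc, a collagen-binding matrix protein that glia and vessels also make, had 377, 433, 377 and 383 CPM in cKO, 391 and 380 in Hetero, and 375, 429, 388 and 363 in Loxp. P4hb, a subunit of prolyl 4-hydroxylase, was at 115% in cKO 2, Bmp1, which trims procollagen, at 116%, and Mia3, which helps to load procollagen into vesicles, at 99.4%. For cKO against Loxp, their median on the log2 scale was 0.015, and -0.0319 without cKO 2.

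In the TGF-beta pathway, which drives collagen genes in fibroblasts, 16 genes were tested, 3 lowest and 4 highest in cKO 2, with a median of 98.6%. Ctgf, a secreted target of the pathway, had 31.8, 14.9, 35.4 and 43.1 CPM in cKO, 28.2 and 30.1 in Hetero, and 42.4, 18.5, 29.4 and 36.3 in Loxp. Ltbp4, which binds latent TGF-beta to matrix, was at 152% in cKO 2, Smad3 at 97.8% and Smad4 at 90.7%. Of the insulin-like growth factor pathway 14 of 15 genes were tested, 3 lowest and 0 highest in cKO 2, with a median of 97.2%. Igfbp6, which binds IGF2 with preference, had 26.8, 4.10, 27.1 and 36.2 CPM in cKO, 26.6 and 25.9 in Hetero, and 34.4, 18.2, 32.6 and 36.9 in Loxp. Igfbp2 had 43.5, 71.6, 41.9 and 43.4 CPM in cKO, 49.7 and 83.8 in Hetero, and 53.1, 52.7, 45.6 and 41.4 in Loxp. Igfbp4 was at 60.0% in cKO 2 and Igfbp5 at 108%. Of the transporters related to Slc6a13, Slc6a11, a glial GABA transporter, was at 137% in cKO 2. Slc6a12, the betaine transporter, was at 44.5% on 0.561 CPM, and cKO 3 and Loxp 1 were lower, at 0.467 and 0.53 CPM.

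**Figure D3:**
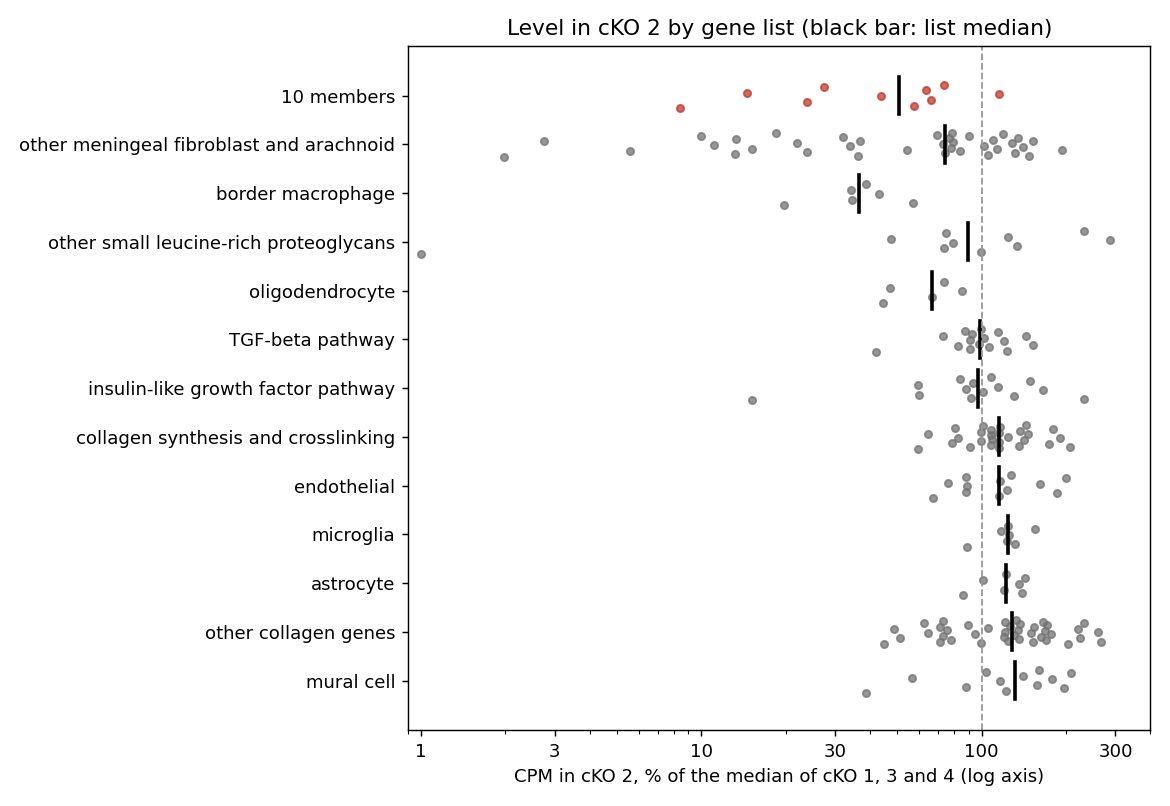
CPM in cKO 2 as a percentage of the median of cKO 1, 3 and 4 (log axis), 1 point per gene, by gene list, with the list median as a black bar and 100% as a dashed line. The 10 genes and the border macrophage genes have medians of 50.6% and 36.5%, while mural cell and other collagen genes have 131% and 128%; Omd, with 0 counts, is drawn at the left edge.

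Markers of other cells give the setting of these levels in cKO 2. Of 8 markers of border macrophages, which live in the meninges and around vessels, 6 were tested and 5 were lowest in cKO 2. Their summed CPM was 4.28 in cKO 2 and 10.5 to 13.5 in the other cKO libraries, against 10.3 to 10.7 in Hetero and 8.30 to 16.2 in Loxp. Mrc1, the mannose receptor, had 6.11, 1.64, 3.82 and 3.13 CPM in cKO, 3.47 and 4.45 in Hetero, and 6.41, 4.11, 4.01 and 2.67 in Loxp. Lyve1 was at 34.2% in cKO 2, Pf4 at 34.4% and Cbr2 at 57.0%, each on fewer than 20 counts. Of 7 microglia markers, cells of the brain tissue itself, 0 were lowest and 5 highest in cKO 2, with a median of 124%.

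Markers of vessel cells were mixed. Of 13 mural cell markers 12 were tested, 2 lowest and 5 highest in cKO 2, with a median of 131%. Rgs5 was at 158%, Pdgfrb at 122% and Vtn at 104%, while the smooth muscle genes Acta2 and Myh11, the second named after its values were seen, were at 38.7% and 56.4% and lowest of the 10 libraries in cKO 2. Of 12 endothelial markers 2 were lowest and 3 highest, with a median of 116%. Cldn5, the claudin of the blood-brain barrier, was at 200%, Esam at 123%, Slc2a1 at 88.3% and Ly6c1 at 87.7%. Astrocyte markers had a median of 122% over 7 genes, excitatory neuron markers 83.9% over 9, red cell genes 76.4% over 5 and choroid plexus genes 79.2% over 9. Oligodendrocyte markers were lower, with 4 of 5 lowest in cKO 2 and a median of 66.3%, of which Mbp was at 85.4% and Mag at 73.5%. The summed CPM of the 5 oligodendrocyte markers was 5512 in cKO 2 and 7812 to 9252 in the other cKO libraries, against 5996 to 8724 in Hetero and 7846 to 9973 in Loxp. Which tissue was taken in cKO 2 and how much of it was meninges cannot be read from the labels, and the part of dissection in these levels was not tested. None of the genes of these cell type lists was called by edgeR in any of the 3 comparisons.

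The 10 genes varied together less without cKO 2. Over the 10 libraries, the Pearson correlation of log2 CPM between 2 genes had a median of 0.639 over the 45 pairs, from -0.417 to 0.987. Without cKO 2 the median was 0.303, from -0.53 to 0.862. The 9 pairs with Bgn had a median of -0.116 with all libraries and 0.223 without cKO 2. Against the mean of the 10 standardised levels, Dcn had the highest correlation (0.97) and Bgn the lowest (-0.0587). Without cKO 2 Col1a2 had the highest (0.932) and Slc6a13 the lowest (-0.0683). These values are descriptions over libraries that share their scaling, and the mean includes each gene itself.

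The genes whose levels were most like that mean over the 10 libraries, of 15211 compared, were Zic4 (r = 0.972), Colec12 (0.953), Acta2 (0.949), Dnajb9 (0.946) and Sh3gl2 (0.938). They were followed by 4930447C04Rik, B3galt2, Deptor, Chrm2, Spag6, Trbc2, Irf2, Eepd1, Adprm and Tmem177, down to 0.91. All 15 had their lowest level in cKO 2, which a ranking on that mean favours, since 9 of the 10 genes were lowest there. Of the 15, 0 were on the list of other meningeal genes. That list was chosen and is not complete, so a gene off it may still be meningeal. Zic4, a zinc finger transcription factor, had 14 counts in cKO 2, 26.8% of the median of the other cKO libraries, and Colec12, a scavenger receptor, had 46.6%. Without cKO 2 the correlation of Zic4 was 0.849, and it was the only one of the 15 that was also among the 15 highest then. Acta2 had 0.799 then, and 4930447C04Rik had 0.246, the lowest of the 15.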

How the data were processed

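Per the labels, Trizol was used to extract RNA from S1BF tissue, and libraries followed the NEBNext Ultra RNA protocol. The authors deposited 1 read count per gene and library. These came from featureCounts 1.5.0-p3 with mm10 as the build, per the submitters' processing notes. The aligner, annotation and strand setting were not given in the sources used here. The authors also deposited FPKM per gene and library, which were used only for levels between genes. Their test columns were not used.

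Counts were tested with edgeR 4.0.16 (limma 3.58.1, R 4.3.3): TMM factors, filterByExpr, glmQLFit and glmQLFTest on all 10 libraries with a mean per group, and Benjamini-Hochberg adjustment over the 18455 genes tested, with a threshold of 0.05. Adjusted p-values are from edgeR. The standard error is the log2 fold change divided by the square root of F. CPM used TMM-scaled totals, and log2 CPM a prior count of 2. The scripts were tested on simulated data. With 7 residual degrees of freedom and a common biological coefficient of variation of 14.9%, the spread between libraries limits precision for most of the 10 genes, and counting error adds to it for Ogn and Lum.

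The genes described, the gene lists and the rule for naming genes were chosen with earlier results of these data known. Named are the 10 genes, up to 4 genes per list with the highest mean FPKM, the 15 genes most like the 10, Rxra and Aldh1a2; others are said to be picked after their values were seen. Some genes that the rule names are not reported here. Lists covered other meningeal, proteoglycan, collagen, collagen synthesis, TGF-beta, insulin-like growth factor, GABA transporter, choroid plexus, mural, endothelial, border macrophage, microglia, neuron, astrocyte, oligodendrocyte and red cell genes. Gene positions came by ID from GENCODE M21 (GRCm38) and promoter windows from RefSeq. Reads of overlapping genes cannot be told apart without strand. Alternatives were DESeq2 1.42.0, limma-voom, other scaling and filters, only the groups compared, a replicate block and each library left out.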

Additional observations from a re-analysis of the deposited data

Results flagged for a closer look

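In groups of 4 libraries, a library was marked when its gap to the nearest of the others made up over 0.829 of the range of the group (Dixon's 95% value). Over 130 groups of 65 named genes 11 were marked, 6 of them for cKO 2, and chance marks about 1 in 20. The 10 meningeal genes, and genes named only for being most like them, were not put to this test, because their levels in these libraries chose them.

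The mark sets the gap against the range of the group, so a small difference is marked where the other libraries lie close together. The libraries marked below the rest of their group were these. Slc17a7, the vesicular glutamate transporter, had 2360 CPM in cKO 1 and 2490 to 2520 in the others, and Slc1a2, the glial glutamate transporter, had 3040 in cKO 4 and 3160 to 3180 in the others.

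The libraries marked above their group were mostly cKO 2 in genes of vessels and glia. Col4a1 had 167 CPM in cKO 2 and 89.6 to 101 in the other cKO libraries, and 155 in Loxp 2 and 90.8 to 102 in the other Loxp libraries. Cldn5 had 115 in cKO 2 and 53.8 to 58.7 in the others, Sparc 433 and 377 to 383, Igfbp2 71.6 and 41.9 to 43.5, Slc6a11 221 and 158 to 165, and Csf1r 93.7 and 79.6 to 81.9. Mia3 had 106 in cKO 1 and 89.2 to 89.7 in the others. Vtn had 55.4 in Loxp 1, with the others at 46.8.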

How the results depend on the processing

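Apart from leaving out libraries, 8 settings gave 80 values of the 10 genes in each comparison, and 80 for cKO against Loxp, 79 for Hetero against Loxp and 78 of those for cKO against Hetero kept their direction and their side of the threshold. Of 100 values with 1 library left out, 88, 96 and 96 did, in the same order of comparisons; the cause of the others was not tested. The counts of genes called, all 0 in edgeR with the filter, were 32, 68 and 39 with no low-count filter and 2, 17 and 3 with DESeq2. With 1 library left out they were 0 to 1 for cKO against Loxp (1 without cKO 2), and without Hetero 1 they reached their highest in the others, 0 to 15 for Hetero against Loxp and 0 to 14 for cKO against Hetero, when a lone Hetero library is assumed to vary like the other groups. With a replicate block, edgeR called 1, 1 and 0 genes. Deviations of same-numbered libraries correlated at 0.0952, 0.199, 0.0419 and 0.322 between cKO and Loxp. They correlated at 0.023 and -0.0151 between cKO and Hetero, and at -0.0257 and -0.00815 between Hetero and Loxp. Of the 10 libraries, 9 correlated best with one of their own number among the other groups. The labels do not say what the numbers mark, so the main fit took no pairs. A factor shared by number was not tested and may be present. With no filter, Igf2 was called in cKO against Hetero (-0.687, edgeR adjusted p = 0.00433) and the log2 fold change of Slc6a13, not called, turned from negative to 0.00219. That of Slc6a13 in Hetero against Loxp turned to 0.213 with the replicate block, also not called. With 1 library left out, log2 fold changes of cKO against Loxp ran from -0.204 to 0.096 for Col1a1, -0.139 to 0.0714 for Col1a2, -0.188 to 0.109 for Col3a1, -0.402 to 0.0347 for Dcn, -0.487 to 0.115 for Fmod, -0.293 to 0.0455 for Igf2, -0.425 to 0.166 for Ogn and -0.256 to 0.197 for Slc6a13. The highest was without cKO 2 for each of these but Col3a1, where it was without Loxp 2. Hetero against Loxp ran from -0.368 to 0.229 for Lum and -0.229 to 0.0569 for Slc6a13, and cKO against Hetero from -0.0605 to 0.0127 for Bgn and -0.182 to 0.271 for Slc6a13. Of the 15 genes most like the 10 genes, 4 were shared with the ranking on levels centred on group means and 1 with that without cKO 2, an alternative chosen after seeing the data. Depth limits Lum and Ogn, with 18 and 8 counts in cKO 2, and in a single library the tissue taken and the animal cannot be told apart.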
